A study of Mus musculus with 4 samples.

Results

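Transcripts of 9 claudin and tight junction genes were examined in 4 mammary gland tumours of the MMTV-R26Met genotype: the claudins Cldn1, Cldn3, Cldn4, Cldn7 and Cldn8, the membrane proteins Ocln, Marveld2 and F11r, and the scaffold protein Tjp1. The genes were chosen by symbol as epithelial claudins and tight junction proteins of the kind used to judge claudin-low character, and all 9 were found among the 28440 rows of the deposited count table. In MMTV-R26Met mice, used to model triple-negative breast tumours, extra Met receptor is made from the Rosa26 locus in cells where the MMTV promoter drives Cre. The tumours, numbered 1 to 4, all have this genotype, with no treated, normal or other tumour group beside them. The labels give neither the ages of the animals nor whether each tumour came from a separate mouse, so the spread and the p-values below describe these tumours only. The libraries held whole-number counts per gene, 35220504 to 42809015 in each, and levels are given as CPM, counts scaled to a common library size by TMM. The epithelial marker Krt8 was abundant in every tumour, at 787 to 1235 CPM, whereas Krt19 ran from 11.6 CPM in tumour 1 to 371 CPM in tumour 4.

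Tight junctions are the belts of contact nearest the apical face of epithelial cells, where strands of claudins in neighbouring cells meet and close the space between them. Claudins are small proteins with several passes through the membrane, and the mix of claudins sets which ions and molecules may pass. Occludin and tricellulin belong to a further membrane family of the junction, and scaffolds such as ZO-1 tie the strands to actin. In breast cancer, "claudin-low" is the name of a tumour class with little Cldn3, Cldn4, Cldn7 and E-cadherin RNA and with many mesenchymal genes. Since no tumour of another class was sequenced beside these, low and high are used here only between genes and between the 4 tumours.

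Of the 9 genes, 8 were well expressed in every tumour, and Cldn4 was close to absent in all of them. Cldn3 and Cldn7 had the highest levels per length. Levels were most even for the scaffold gene Tjp1 and for Marveld2 and least even for Cldn1 and Cldn8. None of the 8 genes that could be tested passed the test for varying more between tumours than genes of like expression (edgeR deviance test at the trended dispersion, Benjamini-Hochberg adjusted p under 0.05), against 3.63% of all 15808 genes tested. At an unadjusted p under 0.05 the same test picked 1 of the 8, Cldn1, against 8.74% of all genes, and the dispersion criterion of DESeq2 picked 0 of the 8, against 0.576%. Cldn4, with 0 counts in tumour 1, fell under the count minimum and was not tested. RNA of whole tumours cannot tell fewer epithelial cells from less RNA per cell.

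**Figure D1:**
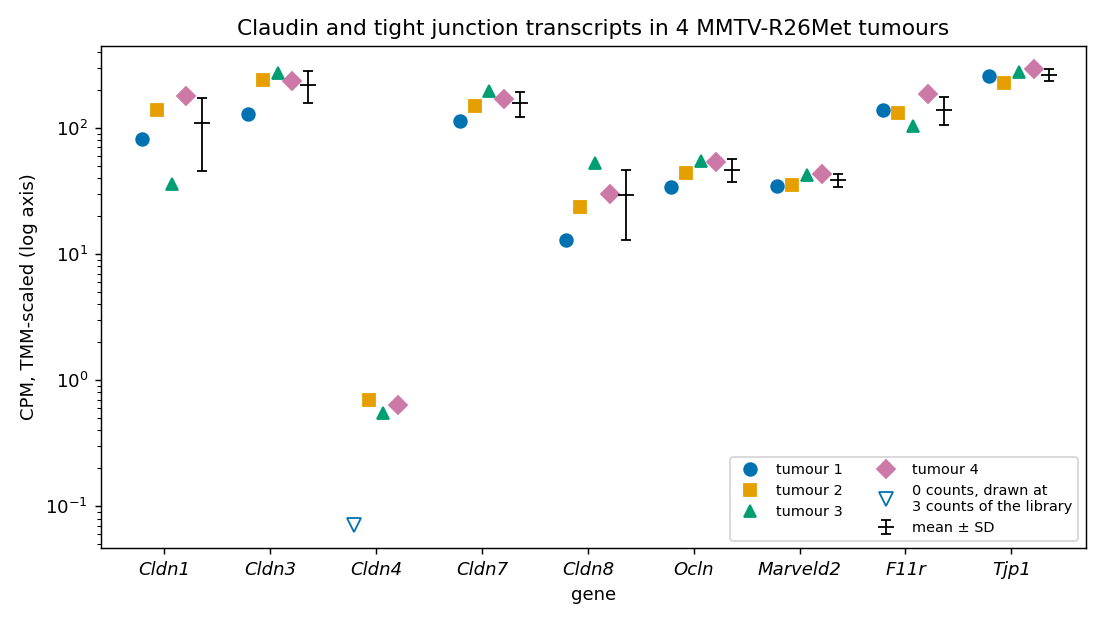
CPM (log axis) of the 9 genes in each of the 4 tumours, with the mean and SD beside them except for Cldn4; the open triangle stands for 0 counts and is drawn at the limit of 3 counts. Cldn4 lies under 1 CPM in all tumours, whereas the other 8 genes lie between 12.8 and 294 CPM.

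Cldn3, a sealing claudin of simple epithelia and a receptor of the enterotoxin of Clostridium perfringens, was the most abundant claudin. Cldn3 (Entrez gene 12739, chromosome 5, 134986214 to 134987476, GRCm38) had 129, 240, 274 and 234 CPM in tumours 1 to 4, with a mean of 219 ± 63.0 CPM (SD, n = 4). Tumour 1 was the low sample, and tumours 2, 3 and 4 lay close together. The highest tumour was 2.13-fold above the lowest, and 1.17-fold without tumour 1. The gene did not pass the test (edgeR adjusted p = 1).

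Cldn4, the closest partner of Cldn3 in claudin-low descriptions and likewise a receptor of the enterotoxin, had 0, 24, 21 and 26 counts in tumours 1 to 4. Cldn4 (Entrez gene 12740, chromosome 5, 134945123 to 134946934, GRCm38) thus stood at 0.694 CPM in tumour 2, 0.549 CPM in tumour 3 and 0.635 CPM in tumour 4, with exact 95% Poisson intervals of 0.445 to 1.03, 0.340 to 0.839 and 0.415 to 0.930 CPM. The 0 counts of tumour 1 gave an exact interval of 0 to 0.087 CPM, and the limit of 3 counts used for a 0 is 0.0708 CPM in that library. These intervals and this limit cover counting error only. Tumour 1 therefore lay under the intervals of the other tumours, which overlapped one another. Per kilobase of exon, Cldn3 was 499, 721 and 531 times as high as Cldn4 in tumours 2, 3 and 4, with intervals of 335 to 779, 472 to 1164 and 362 to 813 from the counting error of Cldn4 alone. In tumour 1 Cldn3 was 2620-fold higher with Cldn4 set to 3 counts, and at least 2131-fold higher with Cldn4 at the upper end of its exact interval. Set against the 13461 tested genes with a known exon length, the level of Cldn4 lay at the 3.97 percentile and that of Cldn3 at the 98.6 percentile.

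None of the 1816 exon bases of Cldn4 is shared with another gene of GENCODE M21, and 0 of its 1717 windows of 100 bases, the read length per the labels, occur in a transcript of another gene. Cldn3 shared 40 of its 1259 exon bases with the antisense gene Wbscr25, which had 26 to 42 counts in the 4 tumours, and the use of strand is not given in the sources used here. The 7 other genes shared no exon base with another gene. Sequences outside annotated transcripts were not searched.

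Cldn4 and Cldn3 are neighbours on chromosome 5, with 39279 bases between them. Around them the table held Cldn13, a further claudin of the cluster, at 0 counts in each tumour, Mettl27, which encodes a methyltransferase-like protein, at 27.5, 23.8, 18.2 and 14.8 CPM in tumours 1 to 4, and Abhd11, a hydrolase gene, at 37.2, 73.2, 52.7 and 47.4 CPM. Counts near 0 thus alternated with ordinary levels along the cluster. Mettl27 lies between Cldn13 and Cldn4, and Abhd11 lies beyond Cldn3.

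The promoters of these neighbours are shown because their genes differ most in level. Each is the 250 bases before the start of the gene in RefSeq, build GRCm38.p6, read 5′ to 3′ on the strand of the gene. Capitals mark matches on either strand to the letters CACCTG, the E-box bound by factors of the Snail and Zeb families, TGANTCA, the site of AP-1, and AACCNGTT, the site of Grainyhead-like factors, where N is any base. The Cldn4 window is chr5:134946935-134947184 on the minus strand and the Cldn3 window is chr5:134985964-134986213 on the plus strand.
Cldn4: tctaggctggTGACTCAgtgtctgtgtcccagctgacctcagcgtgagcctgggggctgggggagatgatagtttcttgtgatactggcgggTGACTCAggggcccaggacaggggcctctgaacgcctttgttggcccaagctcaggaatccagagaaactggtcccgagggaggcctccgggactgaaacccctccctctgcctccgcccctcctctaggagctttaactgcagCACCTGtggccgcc
Cldn3: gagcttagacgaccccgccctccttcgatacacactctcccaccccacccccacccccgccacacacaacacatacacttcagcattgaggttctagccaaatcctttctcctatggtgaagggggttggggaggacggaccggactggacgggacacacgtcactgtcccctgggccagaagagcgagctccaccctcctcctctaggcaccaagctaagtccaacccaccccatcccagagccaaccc

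The Cldn4 window held 2 AP-1 matches, starting 240 and 158 bases before the start, and 1 E-box match 14 bases before it. The Cldn3 window held no match to the 3 motifs. Of the 9 genes 8 were matched to 11 promoter windows, and Cldn8 was not matched. An E-box match was found in 4 of the 11 windows, those of Cldn4, F11r and 1 of 2 each for Cldn7 and Ocln, against 17.2% of 32851 promoters of the same length. An AP-1 match was found in 2 of the 11, those of Cldn4 and F11r, against 6.75% of all promoters, and a Grainyhead match in 0 of the 11, against 1.79%. The motifs did not overlap one another in the windows shown. The counts of CpG were 7 in the Cldn4 window and 9 in the Cldn3 window, with a median of 6 over all promoters. A match is a stretch of letters and not a measured site, and its absence says only that these letters are not in this window.

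Cldn7, a claudin of both the junction and the lateral membrane that binds Epcam, was the second claudin by level. It had 113, 149, 196 and 169 CPM in tumours 1 to 4, a mean of 157 ± 34.8 CPM (SD, n = 4), on chromosome 11 (69964779 to 69967886, GRCm38). As for Cldn3, tumour 1 was lowest and tumour 3 highest, with a fold of 1.73 between them (edgeR adjusted p = 1).

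Cldn1 ran the other way between tumours 3 and 4. This claudin of the skin barrier and of many glands (Entrez gene 12737, chromosome 16, 26356645 to 26371839, GRCm38) had 81.7, 138, 35.7 and 179 CPM in tumours 1 to 4, a mean of 109 ± 62.7 CPM (SD, n = 4). Tumour 3 was lowest and tumour 4 highest, 5.0-fold apart, which put its spread at the 91.4 percentile of genes tested. The gene did not pass after adjustment (edgeR adjusted p = 0.149). Without tumour 3 the fold was 2.19 (edgeR adjusted p = 1).

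Cldn8, a claudin best known from the distal tubule of the kidney, was the scarcest of the 8 tested genes by CPM. It had 12.8, 23.5, 52.2 and 29.9 CPM in tumours 1 to 4, a mean of 29.6 ± 16.6 CPM (SD, n = 4), on chromosome 16 (88560826 to 88563183, GRCm38). Tumour 3 was highest and tumour 1 lowest, 4.08-fold apart (edgeR adjusted p = 0.716), and the fold was 2.22 without tumour 1 and 2.33 without tumour 3. Tumour 3 therefore held the lowest Cldn1 and the highest Cldn3, Cldn7 and Cldn8 of the 4 tumours.

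Ocln, which encodes occludin, had 34.2, 44.2, 54.7 and 53.6 CPM in tumours 1 to 4, a mean of 46.7 ± 9.58 CPM (SD, n = 4). Marveld2, which encodes tricellulin, the protein of the corners where 3 cells meet, had 34.6, 35.2, 42.1 and 43.5 CPM, a mean of 38.9 ± 4.57 CPM (SD, n = 4). Both genes were lower in tumours 1 and 2 than in tumours 3 and 4, by small steps. Ocln spanned 1.60-fold, at the 44.0 percentile of spread among genes tested, and Marveld2 1.25-fold, at the 13.6 percentile, and neither passed (edgeR adjusted p = 1 for each). The genes lie 43238 bases apart on chromosome 13, Ocln at 100496504 to 100552718 and Marveld2 at 100595957 to 100616971 (GRCm38).

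F11r and Tjp1 encode JAM-A, an immunoglobulin-like adhesion protein of the junction, and ZO-1, the scaffold that binds the tails of claudins. F11r (chromosome 1, 171437561 to 171464593, GRCm38) had 138, 131, 103 and 187 CPM in tumours 1 to 4, a mean of 139.7 ± 34.9 CPM (SD, n = 4). Its order was like that of Cldn1 at the ends, with tumour 3 lowest and tumour 4 highest, 1.82-fold apart (edgeR adjusted p = 1). Tjp1 (chromosome 7, 65296165 to 65527850, GRCm38) had 256, 226, 275 and 294 CPM, a mean of 262 ± 29.1 CPM (SD, n = 4). It was the most abundant of the 9 genes by CPM and spanned 1.30-fold, at the 12.2 percentile of spread among genes tested (edgeR adjusted p = 1).

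**Figure D2:**
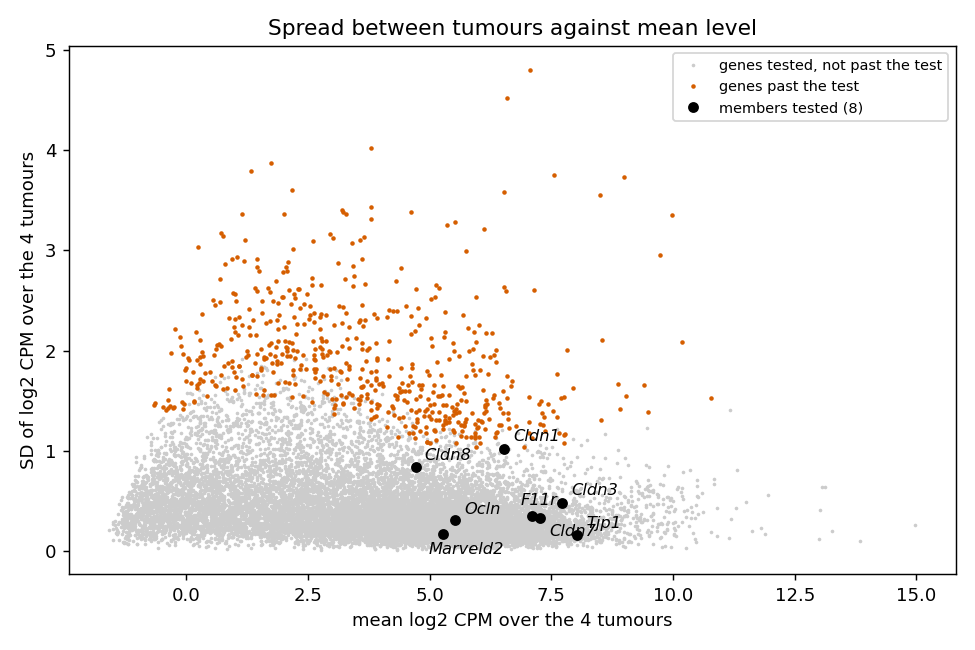
SD of log2 CPM over the 4 tumours (vertical axis, prior count of 2) against mean log2 CPM (horizontal axis) for all 15808 genes tested, with the genes past the test in orange and the 8 tested claudin and tight junction genes in black. Cldn1 and Cldn8 lie highest of the 8, at 1.02 and 0.84, and none is among the orange points.

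As a group, the 8 tested genes had a median fold between the extreme tumours of 1.77, against 1.73 over all genes tested. A fold under 2 was seen for 5 of the 8, against 63.0% of all genes. Of the 8 genes 4 were highest in tumour 3 and 4 in tumour 4, as were 4700 and 4508 of all 15808 genes tested. Of these same 8 genes 5 were lowest in tumour 1, 2 in tumour 3 and 1 in tumour 2, as were 3926, 4377 and 3111 of all genes tested.

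Levels of different genes were compared per kilobase of exon. Cldn3 stood at 174.1 ± 50.04 CPM per kilobase, Cldn7 at 80.5 ± 17.9, F11r at 52.5 ± 13.1 and Tjp1 at 33.6 ± 3.72 (SD, n = 4). These 4 genes held ranks 1 to 4 in every tumour. The ranges over tumours did not overlap between Cldn3 and Cldn7 or between F11r and Tjp1, but did between Cldn7 and F11r. Cldn1 followed at 22.4 ± 13.0 CPM per kilobase, overlapping the ranges of Tjp1 and of Cldn8. Cldn8 (12.6 ± 7.06), Marveld2 (11.5 ± 1.35) and Ocln (11.1 ± 2.27 CPM per kilobase, SD, n = 4) had ranges that overlapped from neighbour to neighbour, and their order changed between tumours. Cldn4 was last in every tumour, with a range under that of Ocln. The plot of levels per exon length shows this order beside the other claudins.

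**Figure D3:**
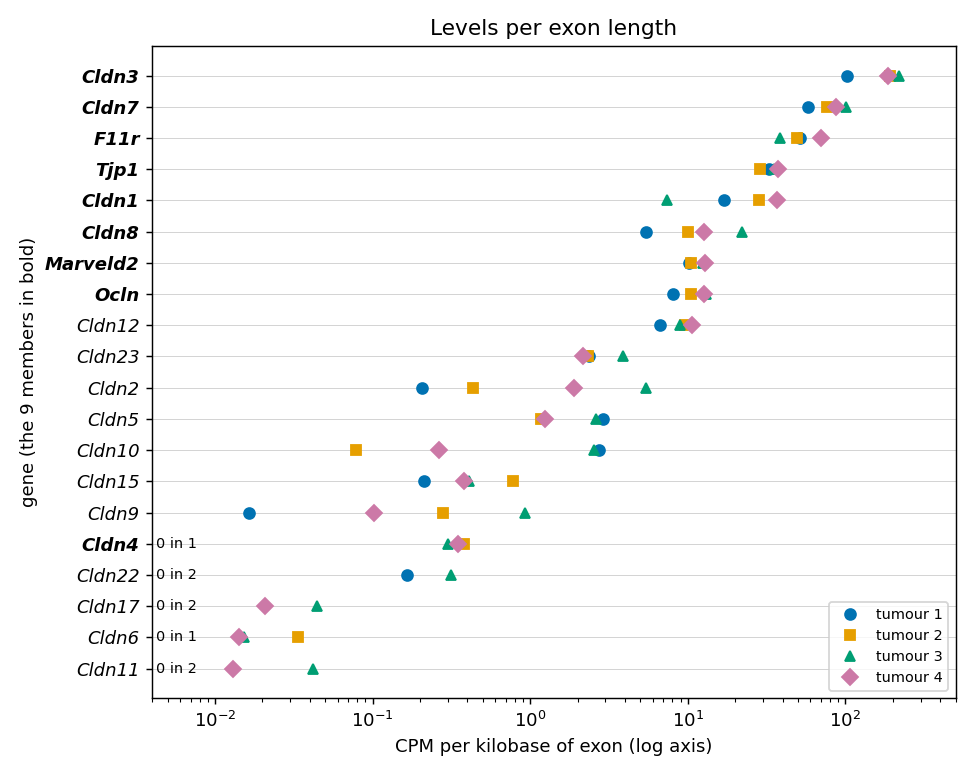
CPM per kilobase of exon (log axis) in each tumour for the 9 genes, in bold, and for the other claudins with at least 1 count; text at the left gives the number of tumours at 0, which are not drawn. Cldn3 and Cldn7 lie above the other claudins in every tumour, and Cldn4 lies among claudins with few or no counts.

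Of 24 claudins listed, 22 had a row in the table. Of these 6 had no count in any tumour, Cldn13 and Cldn18 among them, and 9 were abundant enough to be tested: Cldn1, Cldn3, Cldn7, Cldn8 and 5 others. Cldn20 and Cldn25 were not analysed here. Cldn3 made up 51.6, 59.5, 58.3 and 54.7% of the summed claudin level per kilobase in tumours 1 to 4, and Cldn7 made up 29.4, 23.8, 26.9 and 25.6%. Cldn1 made up 8.53, 8.89, 1.98 and 10.9%. Cldn1, Cldn3 and Cldn7 together held 87.2 to 92.2% of the claudin level. The summed level itself was 198, 321, 374 and 339 CPM per kilobase in tumours 1 to 4, so that tumour 1 had the least claudin RNA.

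Among the other claudins, 1 of 5 tested passed, against 3.63% of all genes tested. Cldn2, which forms pores for cations in leaky epithelia, had 0.684, 1.45, 18.2 and 6.28 CPM in tumours 1 to 4 (edgeR adjusted p = 0.00419). Tumour 3 was high, as it was for Cldn8, and the call was lost without tumour 1 or without tumour 3 (edgeR adjusted p = 0.128 and 0.156). Cldn12, the other claudin with the highest mean, had 38.0 ± 7.16 CPM (SD, n = 4) and did not pass (edgeR adjusted p = 1). Cldn10, a claudin of ion-selective pores named after its values were seen, was too scarce in tumour 2 for the count minimum, with 7.10, 0.202, 6.59 and 0.684 CPM in tumours 1 to 4. With no count minimum its edgeR adjusted p was 0.0397. The median fold of the 5 other claudins tested was 2.50, against 1.73 over all genes tested.

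Other genes of the junction gave no call. None of 10 other membrane proteins and 0 of 20 scaffold and polarity genes passed the edgeR test, also 0 of 30 at an unadjusted p under 0.05 and by the dispersion criterion of DESeq2. Their median folds were 2.16 and 1.64, against 1.73 over all genes. Cxadr, the coxsackievirus and adenovirus receptor, is an adhesion protein of the junction. It had the highest mean CPM of the membrane proteins, at 350 ± 102 CPM (SD, n = 4). Per kilobase of exon, Lsr, named after its values were seen, stood higher, at 57.1 CPM against 47.3 CPM for Cxadr. Crb3, a polarity protein of the apical membrane, had the widest spread, with 4.98, 15.4, 7.9986 and 22.2 CPM in tumours 1 to 4 (edgeR adjusted p = 0.972). Among the scaffolds Cgnl1, which encodes paracingulin, had 282, 273, 286 and 182 CPM, lowest in tumour 4, and Tjp3, which encodes ZO-3, had 28.8, 55.6, 21.9 and 54.3 CPM (edgeR adjusted p = 1 for each). Tjp3 and Cldn1 were both lowest in tumour 3.

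Regulators of the epithelial state had counts in all 4 tumours, at widely different levels. None of 12 passed the edgeR test, 1 at an unadjusted p under 0.05 and 0 by the dispersion criterion of DESeq2. Ovol2, named after its values were seen, had only 0.897 to 2.08 CPM. Ehf, an epithelial factor of the ETS family, was the most abundant at 611 ± 202 CPM (SD, n = 4). Elf5, an ETS factor of the milk-producing lineage, had 104, 190, 71.6 and 388 CPM in tumours 1 to 4, with an edgeR adjusted p of 0.0538. Its order of tumours, with 3 lowest and 4 highest, was that of Cldn1. Grhl2, a Grainyhead-like factor named after its values were seen because claudin genes are known targets of it, stayed at 113 ± 6.57 CPM (SD, n = 4).

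Of 10 genes of the mesenchymal state 2 passed the edgeR test, against 3.63% of all genes. At an unadjusted p under 0.05 the same test picked 4 of the 10, against 8.74% of all genes. The dispersion criterion of DESeq2 picked 0, against 0.576%. The median fold of the 10 was 3.92, against 1.73 over all genes. Cdh2, which encodes N-cadherin, had 40.8, 2.17, 14.1 and 2.69 CPM in tumours 1 to 4 (edgeR adjusted p = 0.000314, and 0.298 without tumour 1). Twist1, a transcription factor that favours the mesenchymal state, had 4.76, 0.983, 16.9 and 1.05 CPM (edgeR adjusted p = 0.00767). That call was lost without tumour 2 (edgeR adjusted p = 0.113) or tumour 3 (edgeR adjusted p = 0.428). Fn1, which encodes fibronectin, was the most abundant at 1212, 791, 2565 and 807 CPM (edgeR adjusted p = 0.744). Tumours 1 and 3 were the high samples for these 3 genes, but the list had no common order: 3 of the 10 genes were highest in tumour 1, 4 in tumour 3 and 3 in tumour 4. Snai2, Snai3 and Zeb2, repressors of epithelial genes named after their values were seen, were lowest in tumour 1 and highest in tumour 4. Zeb2 spanned only 1.35-fold. Their relatives Snai1 and Zeb1, also named afterwards, went the other way and were lowest in tumour 4. Snai1 fell from 8.58 CPM in tumour 1, its highest, to 2.15 CPM in tumour 4. Zeb1 had 20.9 CPM in tumour 3, its highest, and 12.9 CPM in tumour 4. The repressors thus had no common order, and none of them passed the edgeR test. Snai3 had 0.825, 2.63, 2.17 and 7.69 CPM in tumours 1 to 4 (edgeR adjusted p = 0.39). Vim, which encodes vimentin and was also named afterwards, had 348, 306, 622 and 151 CPM in tumours 1 to 4 (edgeR adjusted p = 0.536). The list summed to 1686, 1190, 3318 and 1058 CPM in tumours 1 to 4, most of it from Fn1. Stromal cells also use these genes, and their part in the values was not tested.

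**Figure D4:**
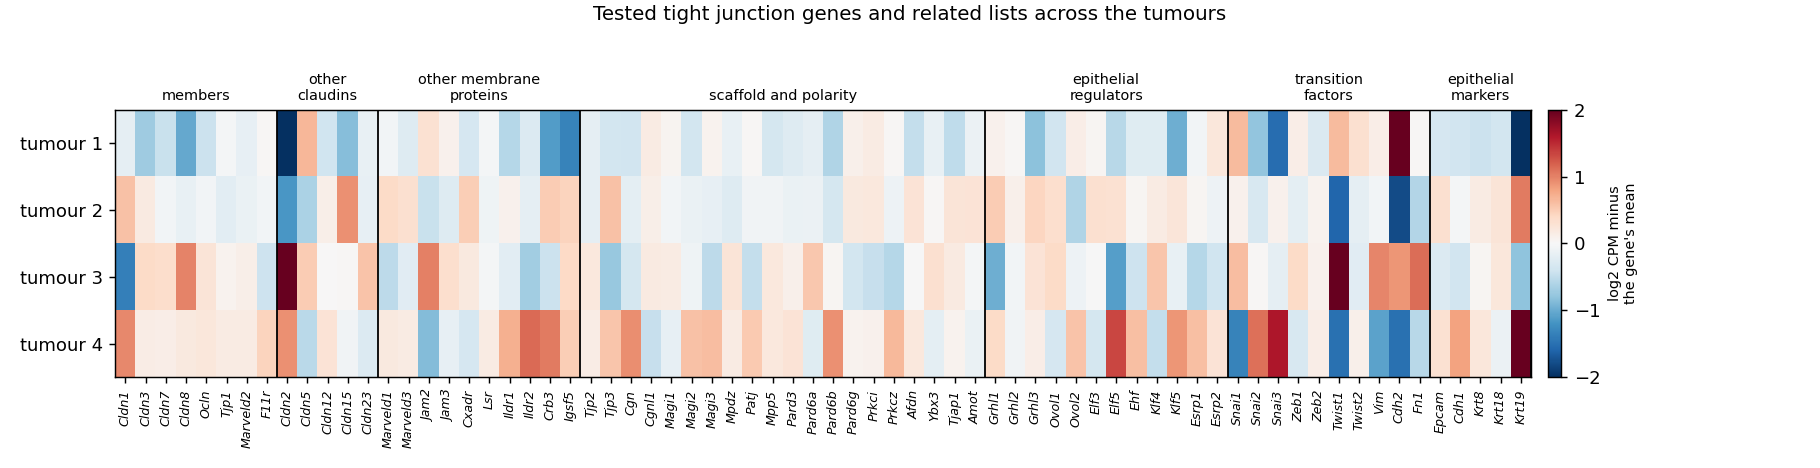
Log2 CPM of each tested gene minus its mean over the 4 tumours (colour, cut at 2 in either direction), by tumour (rows) and gene (columns), for the 8 genes (members), the junction lists, the regulators, the mesenchymal genes (transition factors) and the epithelial markers. Tumour 3 is low for Cldn1 and high for Cldn8 and Cldn2. Colours past 1 are seen for several genes, with Cldn1, Elf5, Twist1, Cdh2 and Krt19 among them.

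Markers of cell types were read in the same libraries, and their link to the junction genes was not tested. All 5 epithelial markers were lowest in tumour 1, with a summed level of 2295, 3578, 3024 and 3875 CPM in tumours 1 to 4. Among them Cdh1, which encodes E-cadherin and was named after its values were seen, had 283, 359, 285 and 649 CPM. Tumours 1 and 3 were thus nearly level for Cdh1. Its level per kilobase lay at the 97.1 percentile. Of these 5, Krt19, a luminal keratin, passed the test, at 11.6, 147, 40.9 and 371 CPM (edgeR adjusted p = 1.96e-08), and Krt8 had 1074 ± 201 CPM (SD, n = 4). Basal markers were highest in tumour 4 in 4 of 5, at a summed 85.1, 134, 145 and 323 CPM. The other, Acta2, had the highest mean of the 5 and was lowest in tumour 4. Its levels were 73.0, 109, 112 and 63.2 CPM in tumours 1 to 4. Of the 5 markers, 4 passed the edgeR test and 1 the dispersion criterion of DESeq2, against 3.63% and 0.576% of all genes. The 4 that passed were Krt5, Krt14, Trp63 and Oxtr, of which Krt5 had 87.3 CPM in tumour 4 and at most 4.08 CPM in the others (edgeR adjusted p = 1.47e-15, and 0.644 without tumour 4). Trp63 and Oxtr likewise did not pass without tumour 4 (edgeR adjusted p = 1 for each). Fibroblast markers summed to 1669, 1849, 2209 and 2666 CPM and leukocyte markers to 233, 331, 244 and 269.9 CPM, and 0 of 6 and 0 of 4 tested genes passed the edgeR test, also 0 at an unadjusted p under 0.05 and 0 by the dispersion criterion of DESeq2. Endothelial markers summed to 165, 123, 151 and 99.9 CPM, 0 of 6 passing by any of these, and among them was Cldn5, the claudin of vessels, at 4.13, 1.65, 3.71 and 1.76 CPM.

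Tumour 3 also held skeletal muscle RNA. All 4 muscle markers were highest there, at a summed 842 CPM, against 0.920, 0.434 and 0.586 CPM in tumours 1, 2 and 4, and Acta1, skeletal actin, alone had 344 CPM. The adipocyte marker Fabp4 was also highest in tumour 3, with 91.1 CPM, against a range of 7.94 to 25.9 CPM elsewhere (edgeR adjusted p = 0.000671, and 1 without tumour 3), whereas the other 3 adipocyte markers were highest in tumour 2 and too scarce to test. Adipoq had 129 counts in tumour 2 and 7 to 11 in the others, Plin1 47 and 3 to 10, and Lep 27 and 4 to 10. The part of these cells in the junction genes was not tested. Without tumour 3 the folds were 2.19 for Cldn1, 1.87 for Cldn3, 1.49 for Cldn7 and 2.33 for Cldn8.

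Set against Epcam, an epithelial adhesion gene, in the same library, tumour 3 stood out further for Cldn3, Cldn7, Cldn8 and Ocln. Cldn3 reached 54.9% of the Epcam CPM in tumour 3, against 26.9, 31.7 and 31.3% in tumours 1, 2 and 4. Cldn7 reached 39.2% there and 19.6 to 23.7% elsewhere, and Cldn8 reached 10.4% and 2.68 to 4.01%. Ocln reached 10.95% in tumour 3 and 5.83 to 7.18% elsewhere. Cldn1 was lowest there, at 7.15% against 17.1, 18.2 and 23.9% (tumours 1, 2 and 4). Of the 9 genes 7 were highest in tumour 3 on this scale, against 4 by CPM. Epcam itself had 478, 758, 500 and 746 CPM in tumours 1 to 4, so the scale raises tumours 1 and 3 beside tumours 2 and 4 for any gene. Tjp1, for one, was nearly level between tumours 1 and 3, at 53.5 and 54.9%. The share of all genes highest in tumour 3 is not given on this scale. Tumour 1, lowest for 6 of the 9 by CPM, was lowest for 3, namely Cldn3, Cldn4 and Cldn8. Tjp1 and Marveld2, the most even genes by CPM, spanned 1.85-fold and 1.81-fold relative to Epcam.

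**Figure D5:**
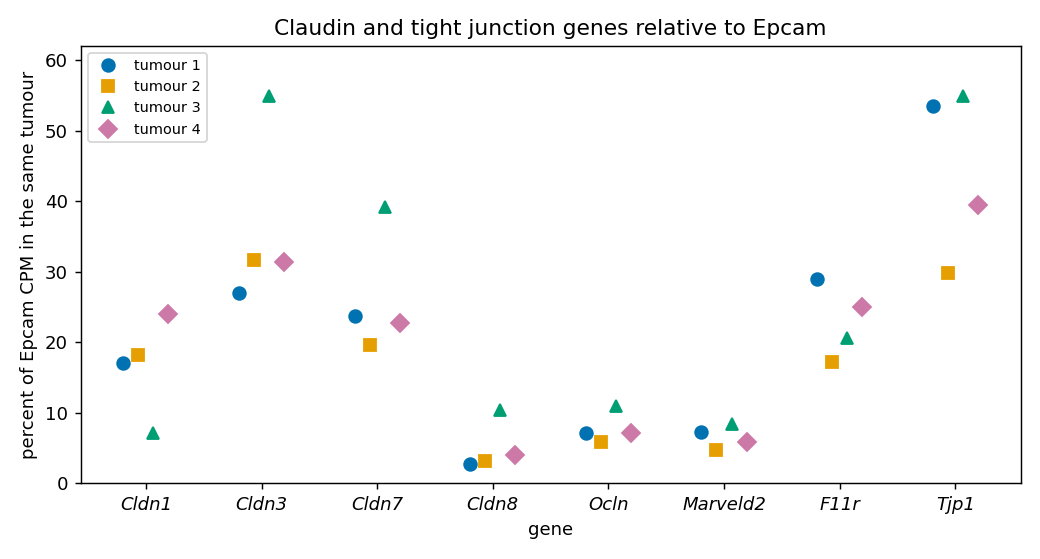
CPM of 8 genes as a percent of the Epcam CPM of the same tumour, by gene and tumour; Cldn4, at most 0.110%, is left out. The triangles of tumour 3 lie highest for Cldn3, Cldn7, Cldn8, Ocln, Marveld2 and Tjp1 and lowest for Cldn1.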

How the data were processed

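Poly-A RNA of 4 tumours was fragmented, copied from random primers and read from both ends (NovaSeq X, 100 bases), per the labels' protocols. The authors deposited whole-number counts per Entrez gene, without normalization. FastQC and the builds GRCm38 and mm10 are named in the submitters' processing notes; the aligner, counting program, annotation and strand setting were not given in the sources used here. Of 28440 rows 24480 were matched to a RefSeq symbol (GRCm38.p6). The number of value columns not used was 0.

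The counts were tested in R 4.3.3 with edgeR 4.0.16. Its filterByExpr (in all 4 libraries the CPM of a count of 10 in a median library, and 15 counts in total) left 15808 genes, with TMM scaling. With no groups, no contrast exists, so each gene was fitted by its mean alone at edgeR's trended dispersion, and its deviance was read against chi-square (Benjamini-Hochberg over all genes). The trended biological coefficient of variation ran from 0.331 to 0.514. The test was checked on simulated data. DESeq2 1.42.0 was an alternative, used for its dispersion outlier rule. Exon lengths are unions of GENCODE M21 exons.

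Named genes are the members and, of each other list, the gene with the highest mean, the tested gene with the widest spread and those past the test; genes nearest in pattern were to be named for members that passed, which were none. Members and lists were chosen with earlier results of these data known.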

Additional observations from a re-analysis of the deposited data

Results flagged for a closer look

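Of 35 named genes, 6 had a tumour far from the other 3 (by Dixon's 95% criterion on the gap to the nearest tumour divided by the whole range, given in brackets), and 0 of the 9 claudin and tight junction genes did. Chance alone flags about 1 in 20 such groups if genes are picked without regard to their values. Some of the 35 were named for the widest spread of their list or for passing the test. That rate does not hold for them. The share of all genes flagged is not given here. The 6 were Acta1 in tumour 3 (0.99954), Krt5, Oxtr and Trp63 in tumour 4 (0.96076, 0.89269 and 0.86989), Cgnl1, which was low in tumour 4 (0.87943), and Adgre1, a macrophage marker, which was high in tumour 2 (0.92178). Of the 9 claudin and tight junction genes, Cldn4 came nearest, with 0.791 for its 0 counts in tumour 1.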

How the results depend on the processing

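None of the tested claudin and tight junction genes passed under RLE scaling, library size alone, no count minimum, a mean of at least 5 CPM, the dispersion criterion of DESeq2 or without any single tumour. With no count minimum Cldn4 could be tested, with an edgeR adjusted p of 0.354. Of all genes 574 passed, 895 with no count minimum and 91 by DESeq2, and 367 to 417 when a tumour was left out. In the lists of other claudins, other membrane proteins, scaffold and polarity genes, regulators and mesenchymal genes, 3 genes passed (Cldn2, Cdh2 and Twist1). Of these lists 0 genes passed by DESeq2 and 1 to 3 when a tumour was left out. Cell type markers that passed are not in these counts. Relative to Epcam the folds of Tjp1 and Marveld2 were 1.85 and 1.81. Leaving out a tumour gave folds of 2.19 to 5.0 for Cldn1, 1.17 to 2.13 for Cldn3, 1.32 to 1.73 for Cldn7, 2.22 to 4.08 for Cldn8, 1.24 to 1.60 for Ocln, 1.15 to 1.30 for Tjp1 and 1.34 to 1.82 for F11r. A fold over fewer tumours is narrower by construction; the cause of the other shifts was not tested. Of 398 values of 50 results under an alternative, 366 kept their side of the threshold or lay within the tolerance (1.5 times for counts and ranks, 1 SD over tumours on the log2 scale for folds), 9 lost a call and 23 moved. A wide tolerance can hide a shift: the Cldn8 fold of 2.33 without tumour 3 is among those within it. Relative to Epcam, tumour 1 was lowest for 3 of the 9 genes, against 6 by CPM. The order of levels per length held for all 9 genes under both scalings and with the longest transcript as length, an alternative chosen after seeing the data, and for 7 genes without tumour 1, 6 without tumour 3 and 9 without tumour 2 or 4. No paired analysis was possible because there is 1 group. With 4 tumours and no replicate of a tumour, differences between neighbours in the order of tumours could not be tested.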

Other observations

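Jam2 and Jam3, adhesion proteins of endothelial and other cells, had 6.23 to 23.2 CPM and 1.79 to 2.74 CPM, with Jam2 highest in tumour 3 and lowest in tumour 4. Lsr, which recruits tricellulin to the corners of cells, had 124 ± 10.1 CPM (SD, n = 4), and its relative Ildr1 had 28.7, 45.5, 36.9 and 70.0 CPM in tumours 1 to 4. Igsf5, an adhesion protein of the JAM kind, had 7.31, 25.3, 24.4 and 26.3 CPM. Cldn9 had 1, 14, 51 and 6 counts in tumours 1 to 4 and was not tested. Jam2, Jam3, Lsr, Ildr1 and Igsf5 did not pass the edgeR test (adjusted p = 1 for each). These genes were named after their values were seen.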
